A study of Bos taurus with 23 samples.

Results

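A set of 187 genes differed in opposite directions between early and late libraries of bovine umbilical cord cells. Their levels were higher at the later time in primary cells and lower at the later time in an SV40-immortalized line. Members were selected on their mean levels by group in CPM, a gene's counts scaled by the total of its library to a fixed sum that is the same for every library. All 5 group means had to be at least 2 CPM, both 50-day primary means had to be at least 1.5 times the 12-day mean, and the mean of the line at 165 days had to be at most 0.6 times its mean at 21 days. The 187 genes were 1.16% of the 16094 genes in the table and 2.29% of the 8157 genes that met the level threshold. Because these values chose the members, levels by culture time are given as a description, with no test.

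Bulk 3′ tag libraries (MARS-Seq) were made from Holstein umbilical cord mesenchymal stem cells. The line was sampled at 165 days of culture (n = 5, library names tagged 2D) and at 21 days (n = 9, of which 5 names carry the tag AM and 4 the tag FBS). Primary cells without treatment were sampled at 50 days (3 libraries tagged WJ and 3 tagged BUC, each with P numbers 10, 15 and 18, the last WJ name also reading F) and at 12 days (n = 3, named BUC Mix, WJ and WJ Male, with P numbers 3, 3 and 4). All libraries carry the same culture medium in their labels, a low-glucose DMEM to which fetal bovine serum was added. What the tags AM, 2D and P stand for is not explained there. In the line 2D goes with 165 days and AM or FBS with 21 days, so culture time and tag cannot be told apart. The 12-day libraries hold both BUC and WJ names, so the ratios over 12 days also mix time with tag. The line goes back to WJ cells into which an SV40 large T plasmid was transiently transfected, and all 14 of its libraries come from the same line. No label ties a library to an animal or culture of its own. The spread behind each p-value is therefore the one among libraries, and it may be technical.

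Mesenchymal stem cells grow attached to plastic and can form bone, cartilage and fat cells in culture. Primary cultures have a limited life span: with repeated passage they slow down and enter senescence, a lasting arrest kept up by the p53 and retinoblastoma pathways and accompanied by a changed secretory programme. The large T antigen binds and inactivates both of these proteins, which lets cells go on dividing past that limit. The deposited table names genes only by Ensembl numbers. None of them could be given a symbol (0 of 16094), so members are described by level and pattern, 4 of them by number, and neither the labelled cell type nor the large T antigen could be checked against marker genes.

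Total counts per library ran from 3753231 to 13540302 in the line at 165 days, from 4141228 to 11382368 in the line at 21 days, from 1840606 to 5920394 in primary cells at 50 days and from 8954270 to 15486372 at 12 days. Libraries stood apart in both groups of the line. At an equal depth of 1840606 counts, AM 4, AM 5, FBS 2 and FBS 4 showed 12611 to 12728 genes, against 12223 to 12424 in the other 5 libraries at 21 days. At 165 days replicates 1 and 2 were the low ones for the members, with medians of 9.52 and 8.79 CPM over the 187 genes, against 12.6 to 13.0 CPM in replicates 3 to 5.

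Together the members took a similar small share of counts at both ends of the pattern. Their share of a library was 0.680%, 0.578%, 0.785%, 0.722% and 0.718% in replicates 1 to 5 of the 165-day line. In the 21-day line it was 1.79%, 1.99%, 2.03%, 1.88% and 1.83% in AM 1 to 5 and 1.81%, 1.22%, 1.79% and 1.30% in FBS 1 to 4. No library of the line at 165 days reached the level of any at 21 days, and FBS 2 and FBS 4 were the lowest at 21 days. In primary cells the share was 1.73%, 1.87% and 1.82% in WJ and 2.53%, 2.95% and 3.08% in BUC at 50 days, against 0.663%, 0.705% and 0.710% at 12 days. The range of the 165-day line (0.697% ± 0.0761, SD, n = 5) enclosed all libraries of the 12-day cells (0.692% ± 0.0259, SD, n = 3). These are relative amounts in bulk samples, in which fewer cells of a kind and less RNA per cell cannot be told apart.

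**Figure D1:**
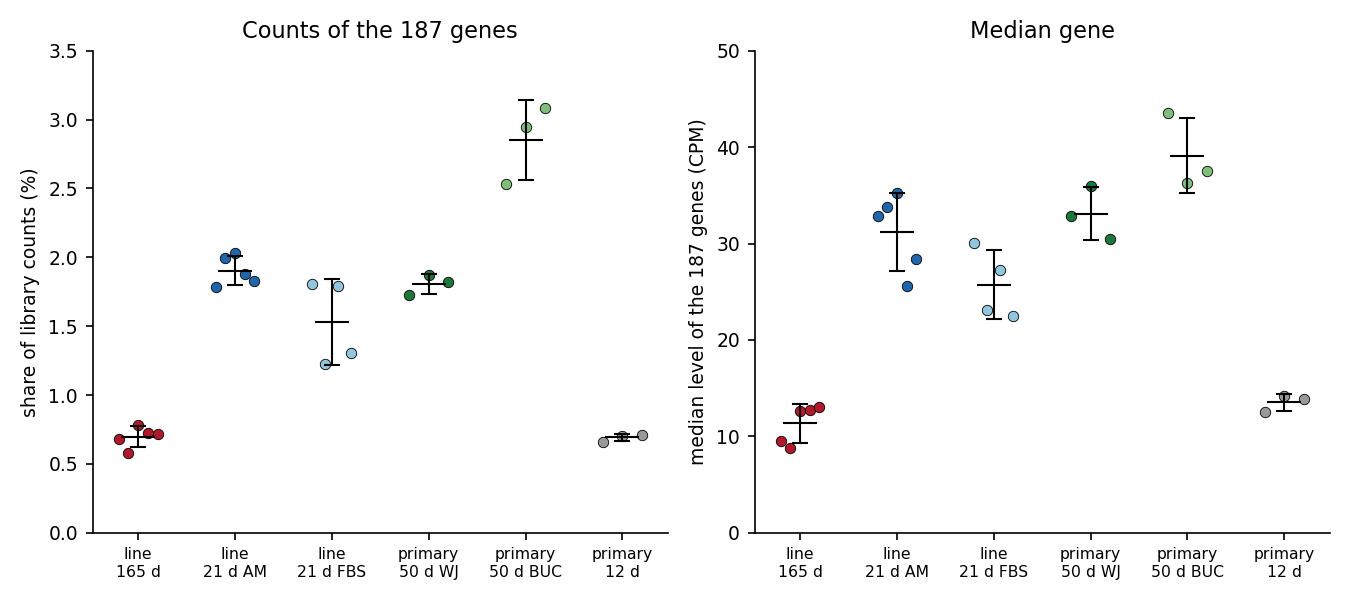
Share of library counts taken by the 187 genes (left, %) and their median level (right, CPM) in each library, by group. Points are libraries, horizontal marks are means and bars are SD. Shares lie between 0.578% and 0.785% in the 165-day line and 0.663% and 0.710% in 12-day primary cells, and at 1.22% or more in every library of the other groups.

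Members were low to moderately abundant at the median. The median of their group means was 11.6 CPM in the line at 165 days and 31.3 CPM at 21 days. In primary cells it was 33.3 CPM (WJ) and 40.0 CPM (BUC) at 50 days and 14.0 CPM at 12 days. Each median was taken within its group, so these values belong to different genes. Over all 8157 genes at the level threshold the medians of the same means were 32.6, 41.2, 29.6, 29.5 and 33.7 CPM. The mean over the 5 groups reached 100 CPM in 37 members and stayed under 10 CPM in 31. Every member had counts in every library, with the exception of 1 member at 0 in replicate 2 of the 165-day line, the shallowest of its group.

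The ratios behind the rule had long tails. The line's ratio of 165 over 21 days ran from 0.107 to 0.5995 with a median of 0.423, and was at or below 0.25 in 18 members. The ratio of 50-day WJ over 12-day cells had a median of 2.16 and a maximum of 87.3, and that of 50-day BUC a median of 2.51 and a maximum of 470. Both were at least 4 in 19 members. Over all 8157 genes the medians of these 3 ratios were 0.818, 0.874 and 0.837. The primary side of the rule was met by 793 of the 8157 genes (9.72%) and the side of the line by 2508 (30.7%). Members were 23.6% of the 793, below the 30.7% of all 8157 genes, and 7.46% of the 2508, below the 9.72%. The mirror pattern, with primary ratios at or below 0.6 and a ratio in the line of at least 1.5, was found in 99 of the 8157 genes.

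**Figure D2:**
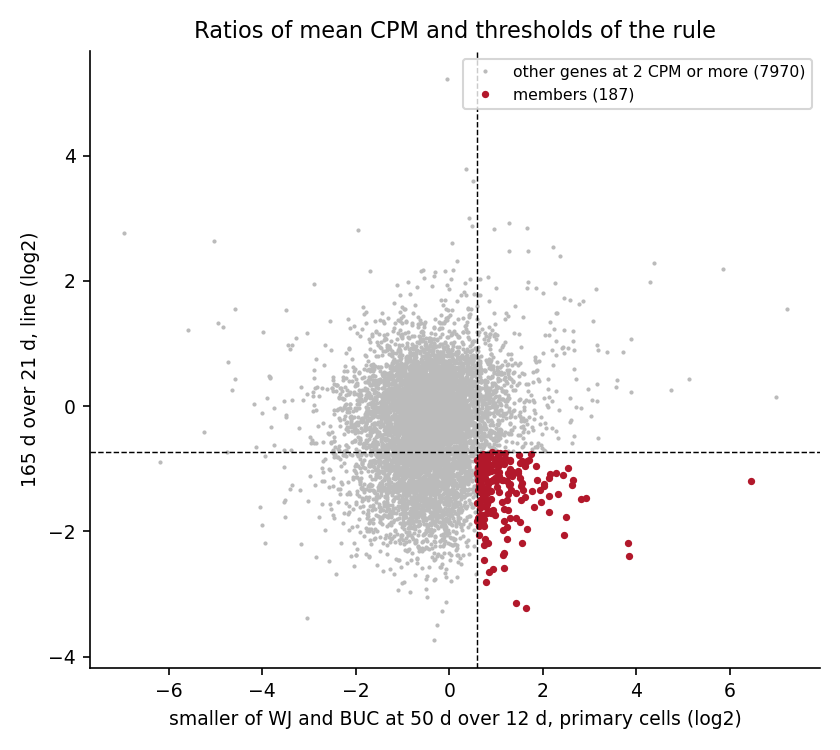
Ratio of mean CPM at 165 over 21 days in the line against the smaller of the 2 ratios at 50 over 12 days in primary cells, both on a log2 axis, for the 8157 genes at 2 CPM or more in all 5 groups. Dashed lines are the thresholds, and the 187 members fill the lower right field.

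Membership at the edges turned on small differences. The members nearest to the limits had a WJ ratio of 1.504, a BUC ratio of 1.503 and a ratio in the line of 0.5995. The nearest genes outside stood at 1.496, 1.494 and 0.6013. For the level threshold the lowest group mean was 2.02 CPM just inside and 1.98 CPM just outside. With every library left out in turn, 115 of the 187 genes met the rule each time.

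Within groups the members had larger coefficients of variation in the line than in primary cells. Their median coefficient was 30.4% at 165 days and 28.2% at 21 days of the line, where the 8157 genes had 17.2% and 19.3%. It was 16.6% in WJ and 16.7% in BUC at 50 days and 8.78% at 12 days, where the 8157 genes had 15.6%, 14.9% and 6.71%. In 118 members the 5 libraries at 165 days all lay below the 9 at 21 days, and in 175 the 6 primary libraries at 50 days all exceeded the 3 at 12 days. Over the 8157 genes these patterns were found in 29.1% and 14.3%, and both together in 2.97% (113 members). The rule used these contrasts, so nothing is read from the counts.

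**Figure D3:**
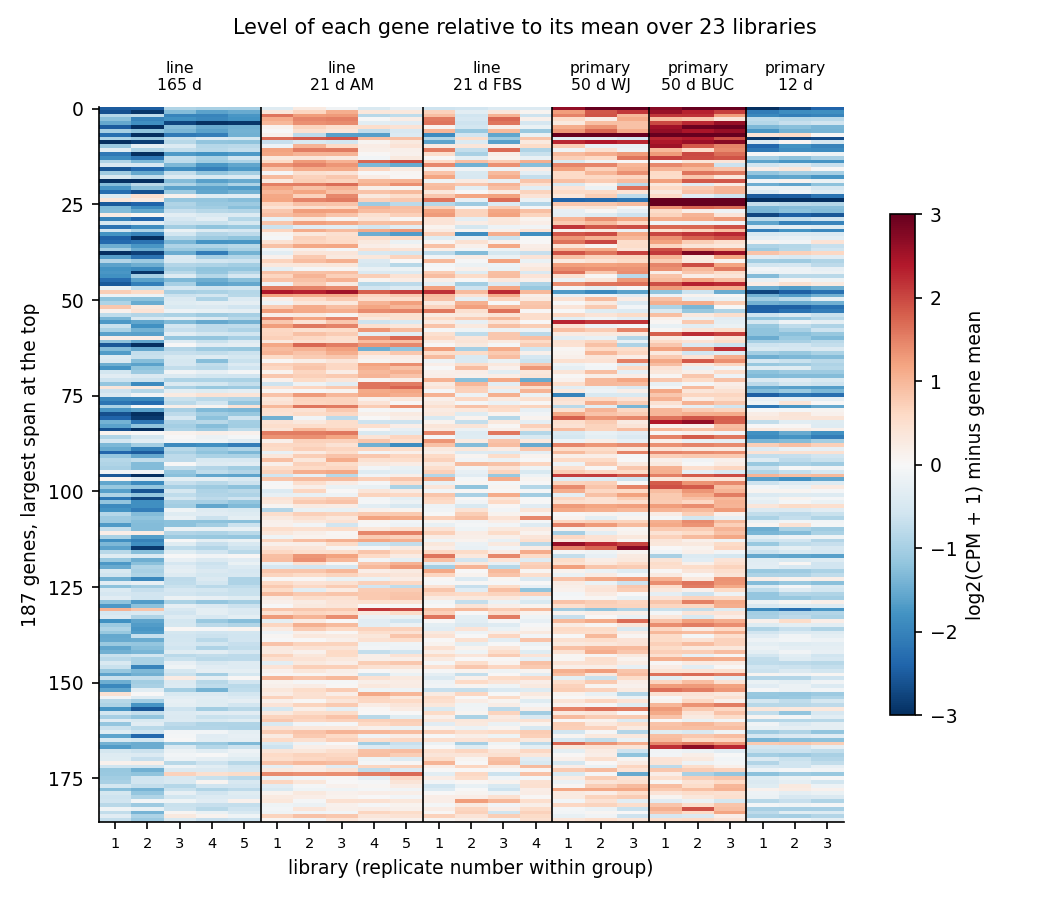
Level of the 187 genes (rows, largest span at the top) in the 23 libraries (columns, by group and replicate), as log2(CPM + 1) minus the mean of the gene. The 165-day line and the 12-day primary cells are mostly below the mean (blue) and the 21-day line and 50-day primary cells mostly above (red), and replicates 1 and 2 of the 165-day line are the deepest blue in many rows.

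The rule did not compare the line with primary cells directly. It did favour low means at 12 and 165 days and high means at 21 and 50 days, which bears on all counts below. The 21-day line was at least 1.5 times the 12-day mean in 129 members and at most 0.6 times it in 4, with a median ratio of 2.09 against 1.17 over the 8157 genes. Its mean was above both 50-day primary means in 62 members, between them in 31 and below both in 94. The 165-day line was within 0.6 to 1.5 times the 12-day level in 88 members, at or above 1.5 times in 45 and at or below 0.6 times in 54 (median ratio 0.847, and 0.995 over the 8157 genes). It was below both 50-day means in 168 members. By the rule the highest of the 5 means could not be in 12-day cells or the 165-day line, and the lowest could only be there. The highest was in BUC at 50 days for 90 members, in the 21-day line for 62 and in WJ at 50 days for 35. The lowest was in the 165-day line for 106 and in 12-day cells for 81. The means in these ratios are those the rule was applied to, so they are given without a test. The same counts were not taken over the 8157 genes, and nothing is read from them.

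A few abundant genes carried a large part of the counts. The 10 members with the highest mean made up 34.3% of the members' counts in the line at 165 days and 37.9% at 21 days, 40.4% in WJ and 49.2% in BUC at 50 days and 35.7% at 12 days. The most abundant member averaged 518 CPM in the line at 165 days (libraries 371 to 615) and 1368 CPM at 21 days (870 to 2463), and 2088 CPM in WJ and 1251 CPM in BUC at 50 days against 524 CPM at 12 days. The next one averaged 123 CPM and 511 CPM in the line at 165 and 21 days, and 938 CPM in WJ and 3270 CPM in BUC at 50 days against 172 CPM at 12 days. In both genes no library at 165 days reached any at 21 days. The other 4 of the 6 most abundant members had ratios in the line of 0.113 to 0.516.

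The member with the largest span, the summed log2 size of the smaller primary ratio and of the fall in the line, was ENSBTAG00000000707. It stood at 2.88, 2.93, 10.9, 10.2 and 10.1 CPM in replicates 1 to 5 of the 165-day line and at 13.4 to 25.4 CPM (median 15.5) in the 9 libraries at 21 days. In primary cells it was at 136, 216 and 228 CPM in WJ and 146, 265 and 265 CPM in BUC at 50 days, against 1.12, 2.37 and 3.16 CPM at 12 days, where these levels rest on 10 to 49 counts. The groups did not overlap at either pair of times, and the ratio over the 12-day mean was 87.3 for WJ and 102 for BUC. The fall in the line was to 0.439 of the 21-day mean, and to 0.616 with replicates 3 to 5 alone, which is outside the rule.

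ENSBTAG00000001835 came second by span. It was at 5.89, 4.53, 16.1, 12.7 and 13.7 CPM in the line at 165 days and at 32.7 to 87.9 CPM (median 51.9) at 21 days. Primary cells held 98.2, 152 and 180 CPM (WJ) and 251, 207 and 172 CPM (BUC) at 50 days, against 8.93, 10.4 and 10.7 CPM at 12 days. Again no libraries overlapped between the times, and the 165-day line was at 1.06 times the mean of 12-day cells. Its ratio in the line was 0.190, and 0.254 with replicates 3 to 5 alone.

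**Figure D4:**
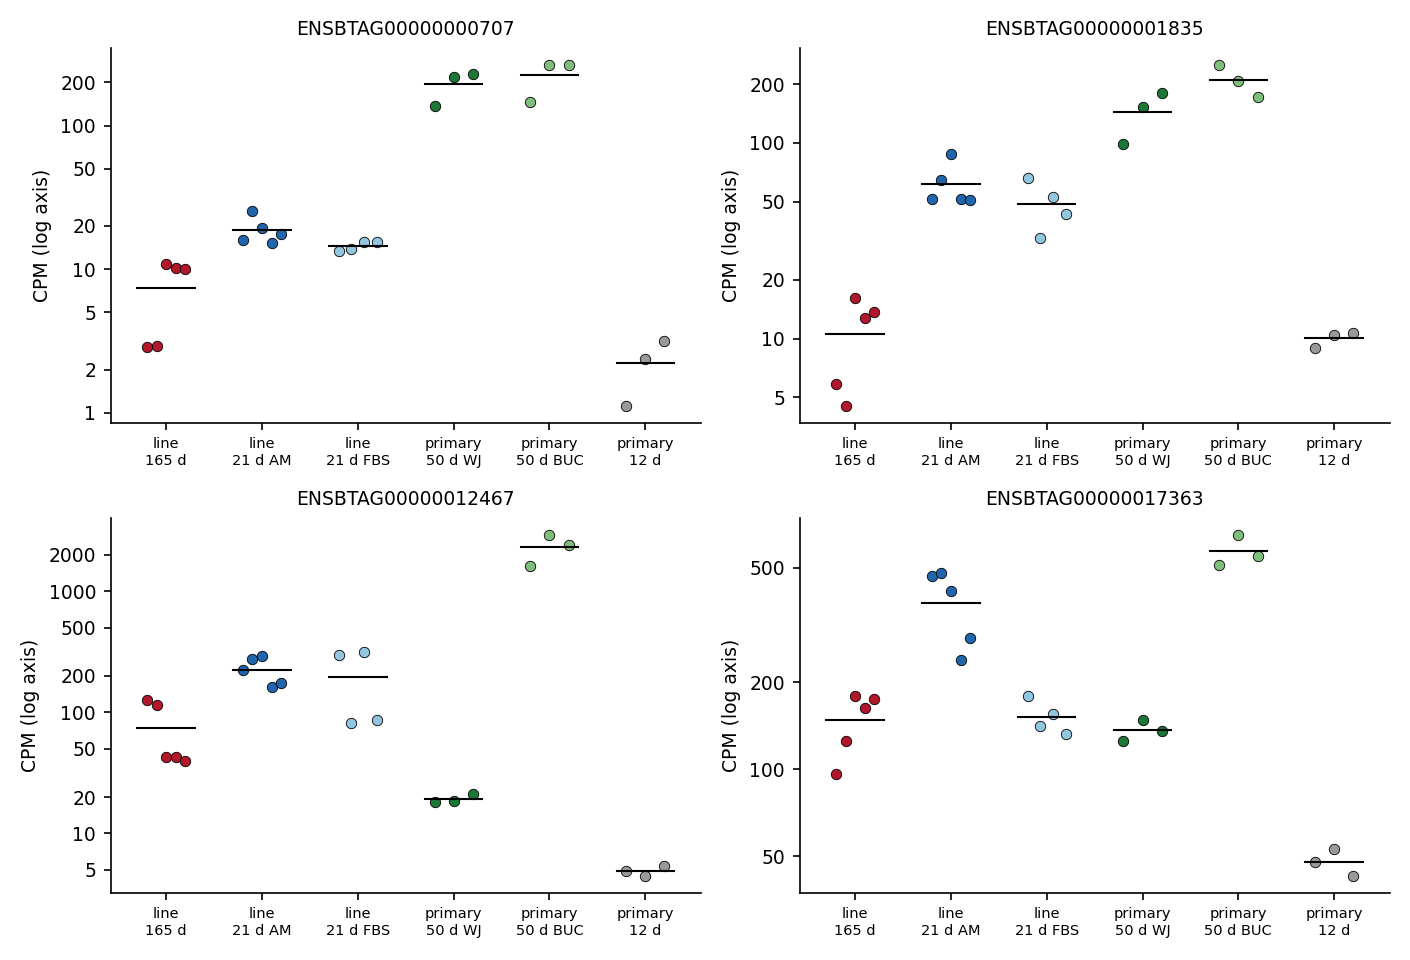
Level (CPM, log axis) of 4 members in each of the 23 libraries, by group, with the group mean as a line. The upper pair has the largest span, ENSBTAG00000012467 at the lower left separates BUC (1610 to 2942 CPM) from WJ (18.1 to 21.2 CPM) at 50 days, and ENSBTAG00000017363 at the lower right separates AM (240 to 477 CPM) from FBS (132 to 179 CPM) at 21 days.

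Levels in the primary cells of either tag were compared within the 50-day libraries, 3 WJ against 3 BUC. The rule set a lower bound on both means and none on their difference. With edgeR's quasi-likelihood test and Benjamini-Hochberg adjustment over 9075 genes, 8 members were higher in WJ (4.28%) and 51 were lower (27.3%), against 10.7% and 13.6% of all genes tested. All 187 members passed the low-count filter. The median log2 fold change of WJ over BUC was -0.26 for the members and 0.01 for all genes tested. This lean was shared by genes outside the set: among the 606 genes that met only the primary side of the rule 3.8% were higher and 27.7% lower in WJ, with a median of -0.23. Without replicate 2 of BUC 4 members were higher and 41 lower in WJ. The calls over all genes fell as well, to 729 higher and 1020 lower of 9331 tested, from 970 and 1231.

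Summed levels are given as a description, since the test chose the members summed. The 51 members lower in WJ summed to 6768 CPM in WJ and 17776 CPM in BUC, and the 128 that did not pass the test summed to 10818 CPM in WJ and 10571 CPM in BUC. In the line the 51 summed to 2989 CPM at 165 days and 8227 CPM at 21 days, and in 12-day cells to 2514 CPM. Among the 51, 27 differed by at least 2-fold and 5 by at least 4-fold, and among the 8 higher in WJ 3 differed by at least 2-fold. At 12 days the library named BUC Mix was, at the median of the 51, not above the 2 WJ libraries. The median difference on the log2(CPM + 1) scale was -0.09 over the 51, with 14 above 0. Over the 8157 genes it was -0.04, with 3056 above 0. Both come from 1 library against 2, with no test.

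**Figure D5:**
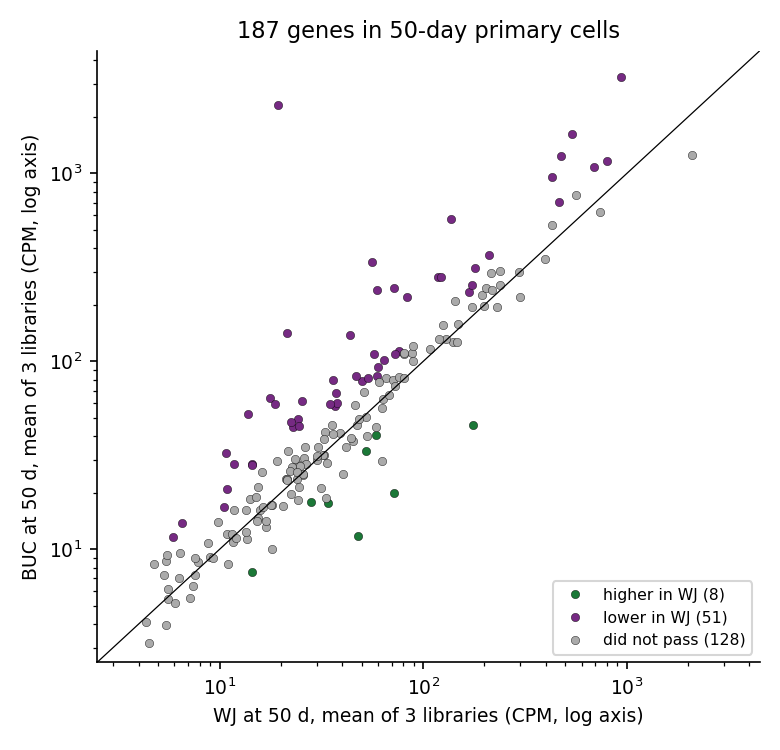
Mean level of the 187 members in WJ (x axis) and BUC (y axis) at 50 days, CPM on log axes, with the line of equal levels. Purple points are the 51 members lower in WJ, green points the 8 higher in WJ and grey points the 128 that did not pass the edgeR test, and the point far above the line is ENSBTAG00000012467.

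The largest of these differences was in ENSBTAG00000012467. At 50 days it had 18.1, 18.6 and 21.2 CPM in WJ and 1610, 2942 and 2404 CPM in BUC, a log2 fold change of -6.97 ± 0.28 (standard error, edgeR adjusted p = 1.83e-06). At 12 days all 3 libraries, BUC Mix included, were at 4.47 to 5.42 CPM. The line, which was made from WJ cells, had 127, 116, 43.1, 42.8 and 39.7 CPM at 165 days, 225, 278, 290, 161 and 173 CPM in AM 1 to 5 and 299, 82.2, 318 and 86.1 CPM in FBS 1 to 4. All libraries of the line were therefore above all WJ libraries and below all BUC libraries of the 50-day cells. In contrast to ENSBTAG00000000707 and ENSBTAG00000001835, replicates 1 and 2 at 165 days were the high ones. With replicates 3 to 5 alone the mean was 41.9 CPM in place of 73.7 CPM, and the ratio to 21 days 0.197 in place of 0.347.

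Next, the 21-day libraries were compared by their tag, 5 AM against 4 FBS. This comparison is not independent of the rule, which asked for a high mean over the same 9 libraries and so took in genes high in AM more readily. With the FBS libraries alone as the 21-day mean, 161 of the 187 members had a ratio in the line at or below 0.6, and with the AM libraries alone 182 had. Over 10597 genes edgeR's quasi-likelihood test called 6 members higher in AM (3.21%) and 0 lower, against 0.368% and 0.0566% of all genes tested. With an unadjusted p under 0.05 there were 39 members and 1001 genes. DESeq2 called 18 members higher and 0 lower, and over all 10547 genes with an adjusted p it called 140 higher and 55 lower. Of the 6, only 2 reached the threshold of the rule with the FBS libraries alone, and 4 reached it through the AM libraries, so the share of members called supports nothing about the set. The 6 members differed by 0.61 to 1.31 on the log2 scale, and in each of them all 5 AM libraries were above all 4 FBS libraries. That separation is only a description, since the test picked these genes on the same 9 libraries. Its share over all genes was not counted. The median log2 fold change was 0.18 for the members, of which 140 of 187 were positive. It was 0.11 for the 2321 genes that met only the side of the line, 1614 of them positive, and -0.03 for the 606 that met only the primary side. The calls lay near the threshold. Leaving out AM 1, AM 2, AM 3, AM 5, FBS 1, FBS 2 or FBS 3 gave 0 members called, leaving out AM 4 gave 1 and leaving out FBS 4 gave 4, while the number of all genes called higher was 5 to 39 in these fits.

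Within each of the 2 sets of 21-day libraries that stood apart, a split found in these data, more members were called. AM 1 to 3 against FBS 1 and 3 gave 37 members higher and 13 lower in AM by edgeR, against 7.29% and 6.26% of the genes tested. AM 4 and 5 against FBS 2 and 4 gave 32 higher and 0 lower, against 3.08% and 2.05%. The link between the rule and the AM libraries holds for these counts too. Whether the response to the tag differed between the sets was not tested, and the small number of libraries limits both fits.

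ENSBTAG00000017363 had the largest difference of the 6. It stood at 467, 477, 416, 240 and 285 CPM in AM 1 to 5 and at 179, 141, 155 and 132 CPM in FBS 1 to 4, a log2 fold change of 1.31 that is given as a description, since the gene met the rule through its AM libraries. The lowest AM library was still above the highest FBS library, and AM 4 and AM 5 were the lowest of their tag. In the 165-day line the gene was at 96.6, 125, 180, 163 and 175 CPM, with a mean 0.972 times that of the FBS libraries, whose range of 132 to 179 CPM overlapped the 165-day range. With replicates 3 to 5 alone the gene was at 0.622 of its 21-day mean, which is outside the rule, in place of 0.533. It was also lower in WJ at 50 days, with 126, 148 and 136 CPM in WJ and 511, 650 and 548 CPM in BUC (log2 fold change -2.11 ± 0.15, standard error, edgeR adjusted p = 1.83e-05), against 42.7 to 52.7 CPM at 12 days. It was 1 of 3 members called in both comparisons, of which 2 were lower and 1 was higher in WJ. The share of all genes called in both was not counted, so nothing is read from this overlap.

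Finally, the 50-day libraries allowed a look at a trend with the P number of their names, from 10 to 18, with the tag in the fit. The slope passed edgeR's quasi-likelihood test in 0 members, and in 2 of 9436 genes tested (0.0212% higher, 0% lower). An unadjusted p under 0.05 was reached by 25 members and 695 genes. DESeq2, which gave an adjusted p for 143 members, called 5 of them higher and 0 lower. Over all 5507 genes with an adjusted p it called 39 higher and 10 lower. The fitted change from P number 10 to 18 ran from -1.21 to 1.19 on the log2 scale over the members, with a median of 0.07, and was positive in 113 of 187. For ENSBTAG00000000707 it was 0.93 ± 0.18 (standard error, edgeR adjusted p = 0.188). Its unadjusted p by edgeR was 0.000521. After adjustment over all genes tested this slope did not pass, and no trend is read from it.

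Scaling moved the size of the fall in the line more than the rise in primary cells. Library totals, as in the rule, put the median ratio of 165 over 21 days of the 8157 genes at 0.818. With TMM scaling, which assumes that most genes do not change, that median shifted by 0.32 on the log2 scale to 1.02, and the members' median ratio was 0.521 with a maximum of 0.755. On the TMM scale 57 members no longer met the rule. Such a scaling shifts all genes of a library alike and raised the primary ratios as well, so these members could be lost only through the ratio in the line. TMM added 18 other genes, and with RLE size factors 50 members were lost and 56 genes added.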

How the data were processed

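The deposited table holds raw counts per gene for 23 libraries, not normalized. The submitters' processing notes name cutadapt, STAR, HTSeq, DESeq and build ARS-UCD1.2. How strand and molecular identifiers were handled, the tools' settings and the annotation release are not stated, so overlapping, antisense and near-identical genes may share counts. Columns were matched to samples by title, and groups came from titles and library names.

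The rule used CPM on column totals. The members and lists were chosen with earlier results of these data known, and gene lists could not be run without symbols. AM against FBS, WJ against BUC and the slope on P number were fitted on all genes with edgeR 4.0.16 in R 4.3.3 (filterByExpr, TMM, glmQLFit, glmQLFTest), Benjamini-Hochberg adjusted over all genes tested, at 0.05. Standard errors were derived from the F statistic. The fits were also run on simulated counts that held no sets of libraries standing apart, and nothing above rests on that run. Genes named were the 2 with the largest span and those with the largest called differences for WJ against BUC and for AM against FBS. Alternatives were RLE size factors, library totals, no filter, DESeq2 1.42.0, a replicate block and leaving out libraries. Depth per library is in the text, and it limits members with few counts.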

Additional observations from a re-analysis of the deposited data

How the results depend on the processing

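The number of genes that met the rule was 187. It was 148 with TMM (130 of them members), 193 with RLE size factors (137 of them members) and 166 with group medians (140 of them members). With only the FBS libraries at 21 days it was 170 (161 of them members). Without replicates 1 and 2 of the 165-day line it was 172 (154 of them members). Leaving out these 2 replicates was chosen after seeing the data, as were the sets of libraries below. The number of genes was 123 with a level of 5 CPM and 67 with ratios of 2 and 0.5, both stricter by construction. Leaving out 1 library gave 174 to 196 genes, with 169 to 185 of the members. For AM against FBS the 6 members higher became 18 with DESeq2 (140 genes higher and 55 lower in all, against 39 and 6). The replicate block left out AM 5, which has no FBS library of its number, and called 0 of all 11017 genes tested. Its 0 members called is therefore nothing particular to the members. Within the sets of libraries 37 and 32 members were higher, and 13 were lower in the first set against 0 in the second. Leaving out 1 library gave 0 to 4 higher and 0 lower. For WJ against BUC leaving out 1 library gave 4 to 9 members higher and 35 to 53 lower. Over all genes these fits called 638 to 885 higher and 956 to 1194 lower, against 970 and 1231 in the main fit. The replicate block by P number gave 6 members higher and 48 lower, and over all genes 921 and 1232. Same-numbered libraries did not deviate together in every pair (correlations of -0.520 to 0.521 for AM with FBS and -0.106 to 0.130 for WJ with BUC), so the numbers were not taken to pair them. The slope on P number called 0 members, 1 higher with no filter (26 genes higher and 8 lower in all) and 5 with DESeq2 (39 genes higher and 10 lower in all, against 2 and 0), and 0 when a library was left out. Apart from the fits with fewer libraries or stricter thresholds, the cause was not tested. Counts of the members were thinnest in replicate 2 of the 165-day line, with a median of 33 counts and a lowest of 0. The shallowest library, in WJ at 50 days (1840606 counts), had a median of 56 and a lowest of 6. Depth limits the low members in both groups.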
